A study of Mus musculus with 2 samples.

Results

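The Gm4340 gene cluster is a set of near-identical mouse genes on chromosome 10, found in the deposited tables as the RefSeq transcripts of Gm4340, Gm4301, Gm4302, Gm4303, Gm4305, Gm4307 and Gm4312. All 7 were listed, among 22421 genes with a symbol. They were chosen by their RPKM in these same libraries, which earlier results had shown higher after Set1a siRNA, so their levels and ratios are a description and no test is given. The libraries came from CGR8 cells, a mouse embryonic stem cell line grown without feeders in serum with LIF, the cytokine that keeps such cells undifferentiated. One library was from cells transfected 2 times within 72 hours with an siRNA against Set1a (gene symbol Setd1a), which encodes a histone H3 lysine 4 methyltransferase, and the other from cells given a negative siRNA in the same way, called control siRNA here. Each group held 1 library, so no difference has a replicate check.

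ALYREF is an RNA-binding adaptor of the TREX complex, which joins messenger RNA to the export receptor NXF1 and so helps carry it from nucleus to cytoplasm. Its gene and that of its paralog ALYREF2 are the named genes whose transcripts the cluster resembles. In the best matching stretch, the 7 transcripts were 85.4% to 85.7% identical to Alyref over 503 to 506 bases, and 6 of them were 82.0% identical to Alyref2 over 473 bases. No function is annotated for the cluster genes in the sources used here. Among embryonic stem cells, a small fraction passes through a 2-cell-like state, in which genes otherwise active in the 2-cell embryo are transcribed. Many of these genes exist as families of close copies, Zscan4 being the best known.

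The start of the coding sequence shows how close the copies are to each other and to Alyref. The first 120 coding bases of 4 cluster genes and the first 60 of Alyref are printed from the GENCODE M21 transcripts (build GRCm38), 5′ to 3′, with capitals marking bases that differ from Gm4302. Alyref is compared with Gm4302 from the atg that follows atgactacc in Gm4302, not from the first base of Gm4302. The stretches lie at chr10:104195397-104195516 for Gm4340, chr10:100335697-100335816 for Gm4301, chr10:100340856-100340975 for Gm4302 and chr10:100345990-100346109 for Gm4303, all on the plus strand, and at chr11:120598279-120598338 on the minus strand for Alyref, each within 1 coding exon.
Gm4340: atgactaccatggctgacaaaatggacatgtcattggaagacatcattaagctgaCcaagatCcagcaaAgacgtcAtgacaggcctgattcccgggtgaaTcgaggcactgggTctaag
Gm4301: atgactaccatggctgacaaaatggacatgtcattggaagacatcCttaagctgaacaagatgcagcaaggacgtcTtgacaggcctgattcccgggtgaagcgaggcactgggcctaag
Gm4302: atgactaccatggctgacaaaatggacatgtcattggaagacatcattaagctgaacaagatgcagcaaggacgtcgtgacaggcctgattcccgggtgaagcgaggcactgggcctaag
Gm4303: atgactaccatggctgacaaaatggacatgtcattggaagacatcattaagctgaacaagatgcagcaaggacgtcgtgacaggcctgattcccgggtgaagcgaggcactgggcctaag
Alyref: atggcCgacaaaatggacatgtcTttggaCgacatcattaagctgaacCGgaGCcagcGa
In this stretch Gm4340 differed from Gm4302 at 6 bases and Gm4301 at 2, while Gm4303 was the same as Gm4302. Over the whole coding sequence, the 6 genes other than Gm4340 were 98.8% to 100% identical to each other in their aligned bases. Gm4340 was 95.2% to 95.9% identical to them.

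The copies differ in the length of their longest run of CAG triplets, in the later part of the coding sequence. The longest uninterrupted run is printed in capitals, with 24 bases on each side. It lies at chr10:104196048-104196113 in Gm4340, chr10:100336318-100336413 in Gm4301, chr10:100341477-100341566 in Gm4302 and chr10:100346611-100346685 in Gm4303, on the plus strand of GRCm38.
Gm4340: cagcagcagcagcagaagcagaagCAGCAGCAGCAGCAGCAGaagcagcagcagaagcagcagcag
Gm4301: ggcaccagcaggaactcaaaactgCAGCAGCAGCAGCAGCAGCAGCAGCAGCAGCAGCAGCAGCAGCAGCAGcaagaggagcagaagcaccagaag
Gm4302: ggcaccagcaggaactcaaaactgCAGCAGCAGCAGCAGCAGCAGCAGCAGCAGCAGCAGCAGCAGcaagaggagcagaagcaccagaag
Gm4303: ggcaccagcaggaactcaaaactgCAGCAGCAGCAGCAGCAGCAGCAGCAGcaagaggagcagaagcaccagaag
The longest run held 6 triplets in Gm4340, 16 in Gm4301 and Gm4312, 14 in Gm4302, and 9 in Gm4303, Gm4305 and Gm4307. In Gm4340 the bases printed beside it were other CAG and AAG triplets, unlike those of the other copies. Its run may therefore not be the matching one. Gm4301 and Gm4303 both had 870 coding bases, so they also differed in length elsewhere. Apart from triplets of the CAG run, 15 bases in all, the coding sequence of Gm4302 had no mismatch with that of Gm4303. The transcripts of Gm4301 and Gm4312 were identical to the last base, as were those of Gm4303, Gm4305 and Gm4307, so the 7 genes gave 4 distinct sequences.

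The genes form 2 groups by structure. Gm4340 has 2 exons in the transcript used, with a coding sequence of 807 bases including the stop. The 6 others have 1 exon each, with 870 or 885 coding bases, and lie next to each other, with 4 genes annotated as pseudogenes between them and no other gene. Gm4312 is on the minus strand and the other 6 genes are on the plus strand. Matched to the transcript of Gm4340, the annotated first bases of the 6 single-exon transcripts fell 5 to 8 bases inside its second exon, which begins at base 107. The 6 single-exon genes are called the single-exon copies below.

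As the copies were higher together in the Set1a siRNA library, the 250 bases before their annotated starts are shown. The windows are from RefSeq, build GRCm38.p6, at chr10:104193792-104194041 on the plus strand for Gm4340, chr10:100335426-100335675 (plus) for Gm4301 and chr10:100340586-100340835 (plus) for Gm4302. Capitals in Gm4301 mark bases that differ from Gm4302 or lie beyond its window.
Gm4340: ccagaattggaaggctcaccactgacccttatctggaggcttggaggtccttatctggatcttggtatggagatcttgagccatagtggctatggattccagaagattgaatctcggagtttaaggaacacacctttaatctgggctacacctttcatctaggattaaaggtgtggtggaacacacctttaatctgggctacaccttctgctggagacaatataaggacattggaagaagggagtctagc
Gm4301: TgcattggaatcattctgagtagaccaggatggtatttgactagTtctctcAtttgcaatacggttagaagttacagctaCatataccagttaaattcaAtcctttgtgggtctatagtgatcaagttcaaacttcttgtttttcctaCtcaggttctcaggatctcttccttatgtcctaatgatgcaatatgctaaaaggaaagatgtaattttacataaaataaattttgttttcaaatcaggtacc
Gm4302: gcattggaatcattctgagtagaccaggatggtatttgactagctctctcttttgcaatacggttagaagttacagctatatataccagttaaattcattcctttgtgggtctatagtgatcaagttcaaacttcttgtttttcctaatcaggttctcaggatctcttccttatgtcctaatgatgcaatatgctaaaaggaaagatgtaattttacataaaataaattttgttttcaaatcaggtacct
Among the 15 pairs of single-exon copies, these windows were 97.98% to 100% identical, with at most 5 mismatches. The window of Gm4340 had 0 BLAST matches to those of the single-exon copies. The exact TATA box letters TATAAA, searched on both strands, were in 0 of the 7 windows, against 12.4% of 32851 windows of the same length before annotated gene starts. Variants, such as the TATAAG in the window of Gm4340, were not counted. As the windows of the single-exon copies are nearly the same, a count of 0 is near that background and is no result about these windows. The single-exon copies are annotated from a point inside the matching second exon of Gm4340, and whether their windows act as promoters was not tested.

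Gm4340 was the most abundant listed copy in both libraries. Its values may include reads of 6 further annotated genes, 99.0% identical to it and described below. It was at 53.0 RPKM in the Set1a siRNA library and 5.52 RPKM in the control siRNA library, where RPKM is a read number divided by the length of the transcript and the depth of the library. These values correspond to about 428 reads after Set1a siRNA and 46 reads after control siRNA. The ratio was 9.60, with an exact 95% counting interval of 7.11 to 13.4. In the Set1a siRNA library 91.1% of the 11786 genes averaging 1 RPKM or more were lower than Gm4340, and in the control siRNA library 36.0% were.

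The single-exon copies were at 5.79 to 8.04 RPKM in the Set1a siRNA library, and all 6 were under 1 RPKM in the control siRNA library. Gm4303, Gm4305 and Gm4307 each stood at 8.04 RPKM after Set1a siRNA and 0.660 RPKM after control siRNA. Gm4302 was close to them, at 7.96 RPKM after Set1a siRNA and 0.654 RPKM after control siRNA. For each of these 4 genes the ratio was 12.2, from 47 Set1a siRNA reads and 4 control siRNA reads, with a counting interval of 4.45 to 46.6. The wide interval comes from the few control reads.

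Gm4301 was at 5.79 RPKM in the Set1a siRNA library and 0.329 RPKM in the control siRNA library. Its identical partner Gm4312 was at 5.96 RPKM in the Set1a siRNA library and 0.329 RPKM in the control siRNA library. The read numbers were 34 for Gm4301 and 35 for Gm4312 after Set1a siRNA, and 2 for each after control siRNA. The ratio was 17.6 for Gm4301 (4.52 to 151) and 18.1 for Gm4312 (4.66 to 156). The 47 reads of Gm4302 after Set1a siRNA had an exact Poisson interval of 34.5 to 62.5, and the 34 reads of Gm4301 one of 23.5 to 47.5. These overlap, so the order among the single-exon copies was not resolved at this depth. Gm4340 lay apart from all of them, with a Poisson interval of 388 to 471 reads after Set1a siRNA and 33.7 to 61.4 after control siRNA.

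**Figure D1:**
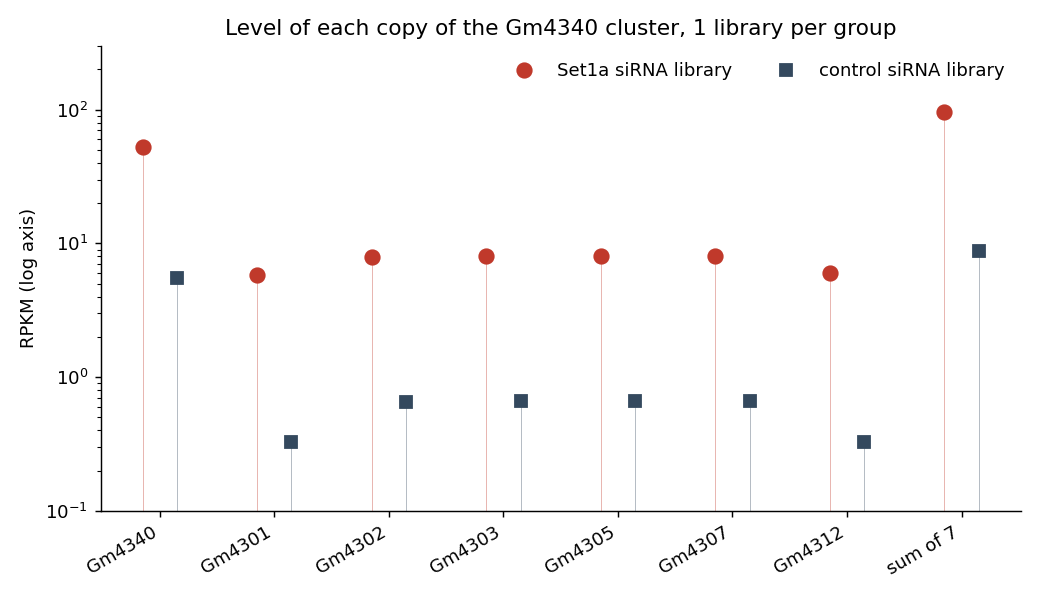
RPKM on a log axis for each copy of the cluster and for their sum, in the Set1a siRNA library (circles) and the control siRNA library (squares), 1 library per group. The circle lies above the square at every copy, Gm4340 is the highest copy in both libraries, and Gm4303, Gm4305 and Gm4307 share their values.

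By the rule of size, a log2 fold past 1 with 1 RPKM added to each value, 7 of 7 members were higher by 2-fold or more after Set1a siRNA and 0 were lower by as much. Over the 11786 genes averaging 1 RPKM or more, 0.764% were past 2-fold on the higher side and 0.407% on the lower side. The choice of members rested on this contrast, so nothing is read from their count. The single-exon copies reached the floor of 1 RPKM only through their Set1a siRNA values. On the same scale the log2 fold was 3.05 for Gm4340 and 2.35 to 2.45 for the single-exon copies, whereas their ratios without an added RPKM, 12.2 to 18.1, exceeded that of Gm4340. The median over all genes was 0.0066.

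Summed over the 7 copies, the cluster was at 96.8 RPKM in the Set1a siRNA library and 8.81 RPKM in the control siRNA library. That is a ratio of 11.0 in RPKM. From 685 reads after Set1a siRNA and 66 after control siRNA, its counting interval was 8.35 to 14.1. The intervals of sums given here take every read as separate, which may not hold and would make them too narrow. Gm4340 made up 54.7% of the summed RPKM after Set1a siRNA and 62.6% after control siRNA. The single-exon copies summed to 43.8 RPKM after Set1a siRNA and 3.29 RPKM after control siRNA, a ratio of 13.3 (8.45 to 22.2). This interval overlaps that of Gm4340, so a difference in ratio between the 2 structures was not detectable at this depth.

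How far the sum counts the same reads more than 1 time depends on how reads that match several copies were counted, which is not given in the sources used here. Of the 14 read numbers of the 7 copies in the 2 libraries, 11 lay within 0.1 of a whole read, the largest deviation among these being 0.0521. The others belong to Gm4340 and Gm4302, and the lengths used are from another annotation release than the authors'. The 3 identical transcripts carried equal and whole read numbers, 47 each after Set1a siRNA and 4 each after control siRNA. Of 17 sets of differently named genes with identical GENCODE transcripts and some reads, 8 had values equal within 0.1% in both libraries, this set among them. Gm4301 and Gm4312, 1 read apart, were among the 9 that did not.

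If each read was counted at every copy it matched, the number of separate reads is smaller than the sum. With each of the 4 distinct sequences taken once, 556 reads after Set1a siRNA stood against 56 after control siRNA, a ratio of 10.4 in RPKM (7.81 to 13.8). This count can still hold the same reads repeatedly. Of the stretches of 50 bases in Gm4302, 99.5% occurred in another distinct single-exon sequence. With the mean per copy, 98 reads after Set1a siRNA stood against 9 after control siRNA, and the counting interval widened to 5.71 to 25.4 around the same RPKM ratio of 11.0. This mean also divides the reads of Gm4340, which alone had about 428 after Set1a siRNA and 46 after control siRNA. It therefore lies below the number of separate reads, and its interval is wider than repeated counting alone would give. For the single-exon copies alone, the mean per copy was 43 reads after Set1a siRNA and 3 after control siRNA, with an interval of 4.76 to 74.9.

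**Figure D2:**
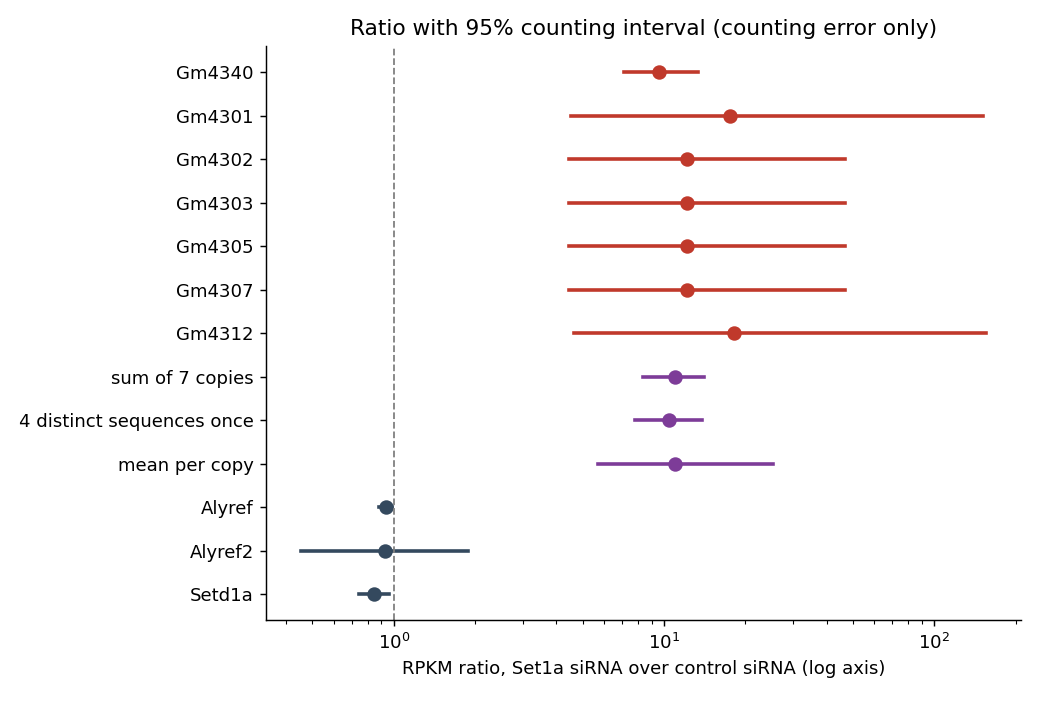
Ratio of RPKM in the Set1a siRNA library over the control siRNA library on a log axis, with exact 95% intervals that cover counting error only, for each copy, for the cluster taken as a sum, as 4 distinct sequences and as a mean per copy, and for Alyref, Alyref2 and Setd1a. The copies were chosen on this contrast, so their intervals show counting precision only, and the widest belong to Gm4301 and Gm4312, with 2 control siRNA reads each. The dashed line marks a ratio of 1.

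The sequences also show which copies short reads can separate. Every window of 50 bases in Gm4301, Gm4312, Gm4303, Gm4305 and Gm4307 occurred in another single-exon copy, since each has an identical partner. With identical transcripts taken as 1 sequence, 48.7% of the windows of Gm4301 and Gm4312 occurred in no other single-exon sequence, against 2.21% for Gm4303, Gm4305 and Gm4307 and 0.456% for Gm4302. Of the windows of Gm4340, 9.43% occurred in a single-exon copy. With windows of 100 bases this share was 0%, and the shares found in no other single-exon sequence were 65.3% for Gm4301 and Gm4312, 8.51% for Gm4303, Gm4305 and Gm4307, and 8.57% for Gm4302. Reads can thus separate Gm4340 from the single-exon copies and, within part of their length, Gm4301 and Gm4312 from the other 4, but not genes with identical transcripts from each other. The read length is not given in the sources used here.

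**Figure D3:**
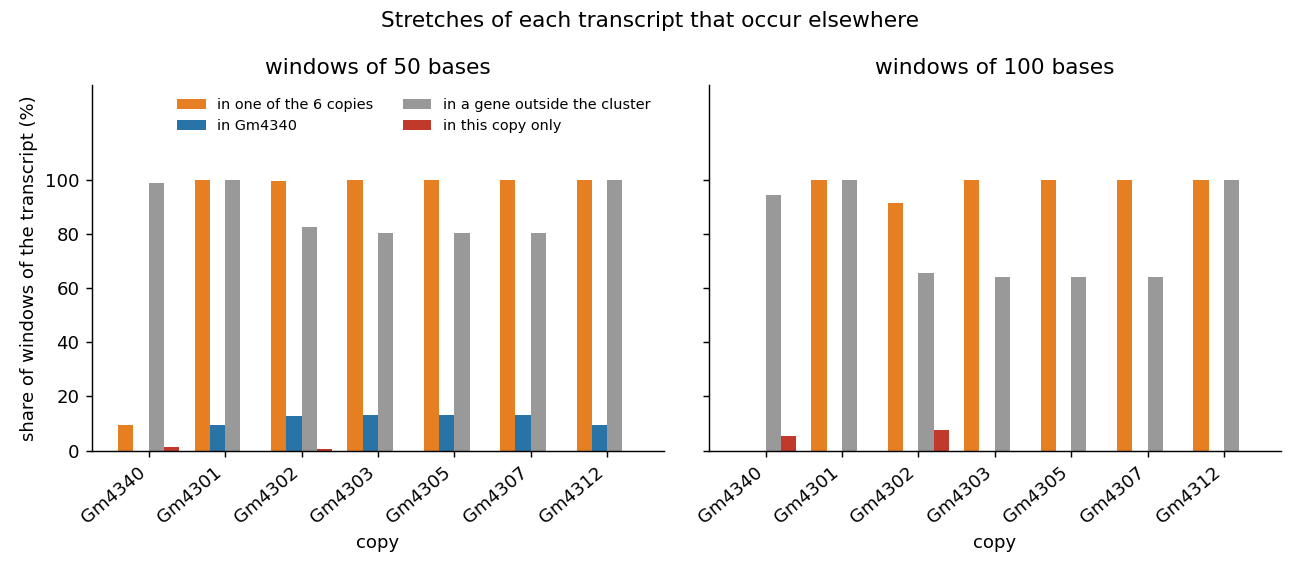
Share of the windows of 50 bases (left) and 100 bases (right) of each transcript that occur in a single-exon copy, in Gm4340, in an annotated gene outside the cluster, or in that copy only. The single-exon copies share nearly all windows among themselves, identical partners included, and Gm4340 shares under 10% with them at 50 bases and none at 100 bases.

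The annotation holds further relatives. BLAST against all GENCODE transcripts of at least 200 bases found 15 genes outside the cluster with at least 90% identity over at least 50% of the shorter transcript. Gm20765, Gm21293, Gm21304, Gm21312, Gm6763 and Gm8764, all annotated as protein-coding, were 99.0% identical to Gm4340, and 94.5% of its windows of 100 bases occurred in them. Another 8, annotated as pseudogenes, were 93.2% to 100% identical to a single-exon copy, with Gm4308 identical to Gm4301 throughout. None of these 14 was analysed here, and reads from them may stand at the listed copies. The remaining relative, the transcribed pseudogene Gm4850, 90.4% identical to Gm4340, was at 0.170 RPKM after Set1a siRNA and listed at 0 after control siRNA.

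The targeted gene, Setd1a, was at 11.97 RPKM in the Set1a siRNA library and 14.2 RPKM in the control siRNA library, a ratio of 0.846 (0.745 to 0.959). The difference in Setd1a was thus modest beside that of the cluster. The recovered depth was about 6410000 reads for the Set1a siRNA library and 6650000 for the control siRNA library. All 10 pluripotency markers were present, at 44.6 to 1692 RPKM after Set1a siRNA and 42.2 to 2004 RPKM after control siRNA. Of 8 fibroblast markers only Thy1 averaged 1 RPKM or more, and the list summed to 5.42 RPKM after Set1a siRNA and 2.99 RPKM after control siRNA, with Col1a2, Postn and Dcn at 0 in both. Of its low members, Pdgfrb had 39 reads after Set1a siRNA and 17 after control siRNA, a ratio of 2.38 (1.31 to 4.48), and Col1a1 had 14 reads after Set1a siRNA and 3 after control siRNA, a ratio of 5.70 (1.35 to 26.3). Pdgfrb and Col1a1 were named with their values in view. Of 6 trophoblast markers only Tfap2c reached it, with Cdx2, Elf5 and Plac1 at 0 in both libraries and sums of 10.6 RPKM after Set1a siRNA and 12.8 RPKM after control siRNA. Of 6 endoderm markers 0 did, with sums of 2.10 RPKM after Set1a siRNA and 1.95 RPKM after control siRNA and Afp at 0 in both. The part of these cell types in the cluster's values was not tested.

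Alyref and Alyref2, the genes the cluster resembles, had ratios close to 1. Alyref was at 95.9 RPKM in the Set1a siRNA library and 103 RPKM in the control siRNA library, a ratio of 0.933 (0.880 to 0.990). Alyref2 was at 2.08 RPKM after Set1a siRNA and 2.24 RPKM after control siRNA, a ratio of 0.927 (0.453 to 1.88). Per length, Gm4340 alone stood at 55.3% of the level of Alyref in the Set1a siRNA library and at 5.37% in the control siRNA library. The values of Gm4340 may hold reads of its unlisted relatives. The sum of the 7 copies, which may count reads repeatedly, stood at 101% of Alyref after Set1a siRNA and 8.58% after control siRNA.

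Of 25 listed genes of the TREX complex and mRNA export, 22 averaged 1 RPKM or more. None of the 22 passed 2-fold, with 0 on the higher side and 0 on the lower, against 0.764% and 0.407% of all genes. A count of 0 among 22 is near that background and is no result about these genes. Their median log2 fold was 0.0098, beside 0.0066 for all genes, with 11 above 0 and 11 below. Under the floor, Nxf7, named with its value in view, had 3 reads after Set1a siRNA and 17 after control siRNA. Its ratio was 0.183 (0.0344 to 0.633), while those of Nxf2 and Nxf3 were 1.04 and 1.14. The helicase gene Ddx39b, whose product loads ALYREF onto RNA, was at 158 RPKM after Set1a siRNA and 143 RPKM after control siRNA, and the export receptor gene Nxf1 was at 28.4 RPKM after Set1a siRNA and 28.5 RPKM after control siRNA. Ddx39b and Nxf1 are named for their roles, with their values already known.

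Against the sum of the copies, the genes nearest in fold were mostly copies of Zscan4, a family of zinc finger genes that marks the 2-cell-like state. The measure was the absolute difference in log2 fold from the cluster sum, 3.32, over the 2 libraries, for genes averaging 1 RPKM or more. Zscan4a lay 0.16 away, Zscan4c 0.16, Zscan4d 0.24, Zscan4b 0.35 and Zscan4f 0.40. The remaining gene of the nearest 6 was Rprl3, an RNase P RNA gene, 0.28 away, at 7.23 RPKM after Set1a siRNA and listed at 0 after control siRNA. This order depends on the sum, which may count reads repeatedly. Against the mean per copy, with a log2 fold of 2.72, 0 of the nearest 6 genes were Zscan4 copies, and against Gm4340 alone 1 was. The mean also divides the reads of Gm4340, and the added 1 RPKM weighs more on its smaller value. The nearest 6 to the mean per copy were the small RNA genes Mir290a, AF357355, Snord38a, Snord72 and Mir431, each with 2 or 3 reads after Set1a siRNA and 0 after control siRNA, and Usp17lb, of a deubiquitinase family, with 42 reads after Set1a siRNA and 0 after control siRNA. Outside the cluster, 14 of the 11786 genes had a log2 fold at or above 2.35, that of the lowest member.

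Of 40 genes entered in a 2-cell-like list, which holds no member of the cluster, 34 were found and 23 averaged 1 RPKM or more. Of the 23, 17 passed 2-fold on the higher side and 0 on the lower, against 0.764% and 0.407% of all genes. Their median log2 fold was 1.91, beside 0.0066 for all genes. Of the 17, 5 reached the floor only through their Set1a siRNA value, being under 1 RPKM after control siRNA, namely Usp17lb, Usp17lc, Usp17ld, Gm428 and Pramel16. The list was chosen with earlier results of these libraries known, and several of its genes are copies of each other that may share reads. Zscan4f was at 41.2 RPKM after Set1a siRNA and 2.22 RPKM after control siRNA, a ratio of 18.6 (12.6 to 28.4). Zscan4c had a ratio of 16.3 (11.2 to 24.3) and Zscan4b of 23.2 (13.4 to 44.1). Among the genes named by highest mean, the others had lower ratios, at 5.89 for Gm5662 (4.39 to 8.04), 4.20 for Gm2016 (3.25 to 5.49) and 4.66 for Gm2022 (2.50 to 8.75). For the 5 under 1 RPKM after control siRNA, no order against Zscan4 is read. Usp17lb had 42 reads after Set1a siRNA and Gm428 had 30, both with 0 after control siRNA. Pramel16 had a ratio of 15.5 (3.95 to 134), Usp17lc of 6.39 (2.67 to 18.5) and Usp17ld of 6.63 (2.83 to 19.5).

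Not all genes of the list were higher. Pramel14 was the furthest the other way, at 2.22 RPKM after Set1a siRNA and 3.86 RPKM after control siRNA, a ratio of 0.576 (0.338 to 0.960) and a log2 fold of -0.59. Pramel13, with a ratio of 0.847 (0.739 to 0.970), and Sp110, with a ratio of 1.06 (0.690 to 1.63), were also within 2-fold. Zfp352, a gene of the 2-cell embryo, rested on 11 reads after Set1a siRNA and 6 after control siRNA, and Duxf3 on 2 reads after Set1a siRNA and 0 after control siRNA, both under the floor. The names of these 5 were picked with their values in view. In bulk RNA, a larger number of cells expressing these genes cannot be told apart from more RNA of them per cell, and the same holds for the cluster.

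**Figure D4:**
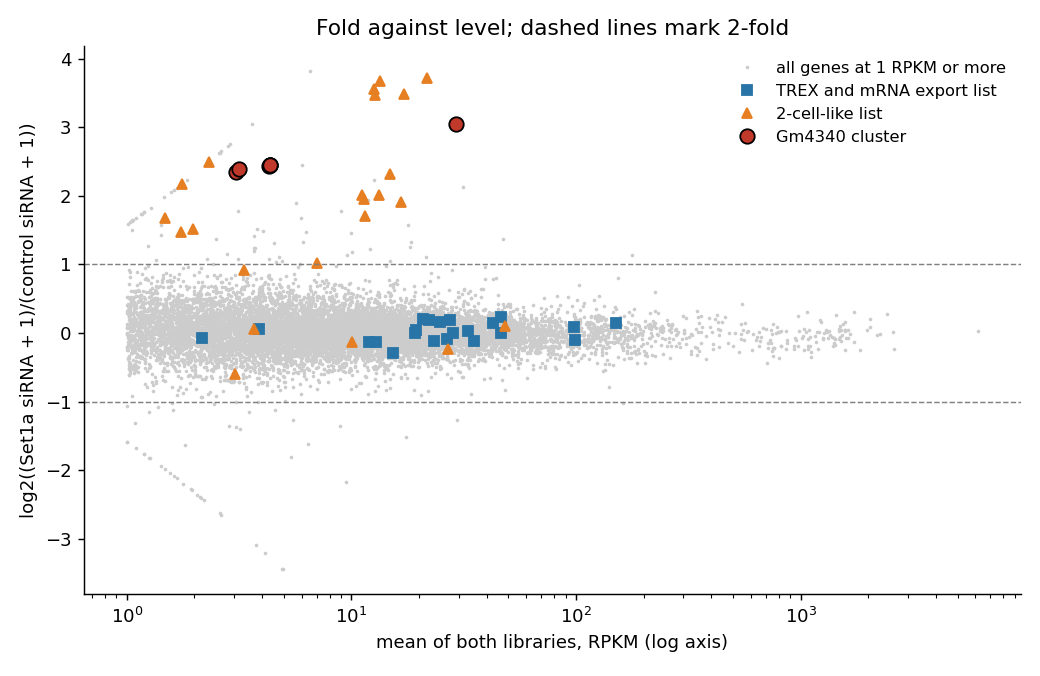
Log2 fold, with 1 RPKM added to each value, against the mean of both libraries for all genes at 1 RPKM or more (grey), the TREX and mRNA export list (squares), the 2-cell-like list (triangles) and the Gm4340 cluster (circles). The cluster lies between 2.35 and 3.05, and the export genes lie around 0. Of the 2-cell-like list, the Zscan4 copies lie above the cluster, at 3.47 to 3.71. Only Usp17lb, at 2.50, lies in the range of the cluster, and the other genes of that list lie lower.

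Genes next to the cluster on chromosome 10 are given for comparison. The nearest 3 listed protein-coding genes on either side of the single-exon copies and of Gm4340, 12 in all, were taken by position alone after the data had been seen. Of the 12, 8 averaged 1 RPKM or more, and their log2 folds ran from -0.32 to 0.12, with 0 past 2-fold. Since 0.764% of all genes were past 2-fold on the higher side and 0.407% on the lower, a count of 0 among 8 is near that background and is no result about these genes. Tmtc3, the nearest listed protein-coding gene after the single-exon copies, was at 8.996 RPKM after Set1a siRNA and 8.18 RPKM after control siRNA, a ratio of 1.10 (0.943 to 1.28). Slc6a15, an amino acid transporter gene and the nearest such gene before Gm4340, was at 6.69 RPKM after Set1a siRNA and 7.04 RPKM after control siRNA, a ratio of 0.951 (0.760 to 1.19). Kitl, the gene of the KIT ligand and the nearest such gene before the single-exon copies, was under the floor, at 1.09 RPKM after Set1a siRNA and 0.744 RPKM after control siRNA. The interval of its ratio, 0.866 to 2.44, includes 1.

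**Figure D5:**
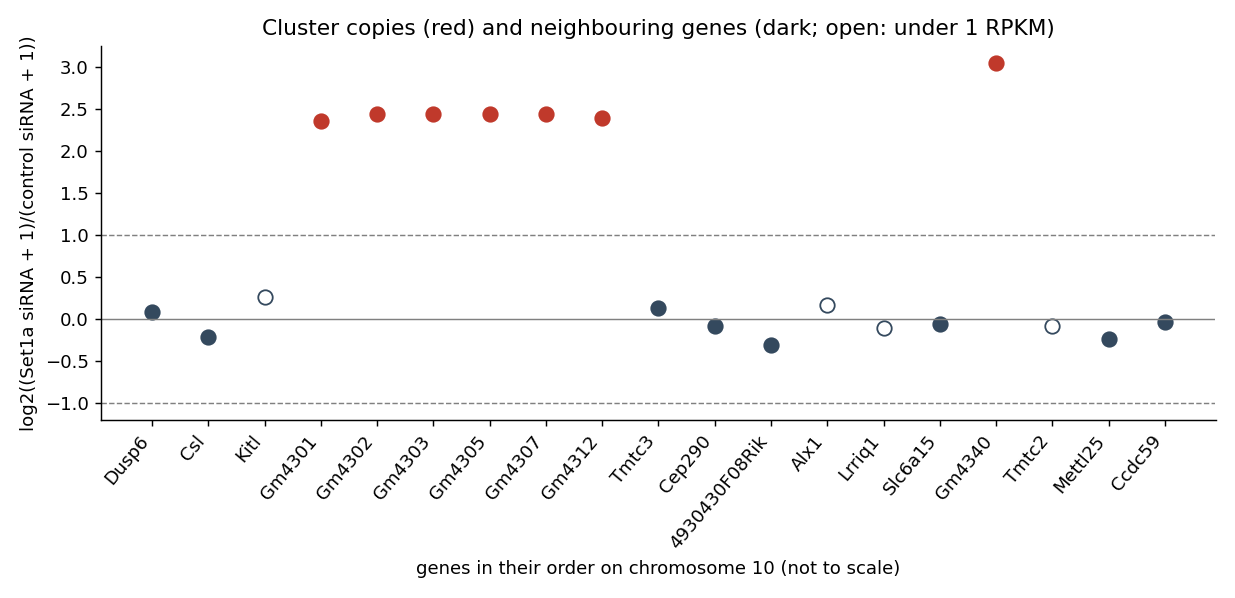
Log2 fold, with 1 RPKM added to each value, for the cluster copies (red) and the nearest 3 listed protein-coding genes on either side (dark, open where the mean is under 1 RPKM), in their order on chromosome 10 in GRCm38.p6 and not to scale. The copies lie between 2.35 and 3.05, and the filled neighbours between -0.32 and 0.12.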

How the data were processed

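RNA-seq values of 2 libraries were analysed, 1 from CGR8 cells given Set1a siRNA and 1 from cells given control siRNA, grouped by the transfection label. The deposited tables list 28430 RefSeq transcripts with 1 value each and no header. No source names the unit. The deposited values were taken as RPKM, scaled by the authors, since multiplied by length they moved in steps of 1 read. The build was mm9 and the tools were TopHat2 2.0.12, TopHat, SAMtools 0.1.16 and CASAVA, in no stated role, per the submitters' processing notes. How reads were counted, whether by strand, and where reads with several matches went is not given in the sources used here.

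The step of 1 read gave the depth. Of transcripts with 1 to 5 reads, 73.6% in the Set1a siRNA library and 74.8% in the control siRNA library were at most 0.1 from a whole read, where random placement would give 20%. Symbols (98.3% of transcripts) came from RefSeq GRCm38.p6 and GENCODE M21, and lengths from GENCODE M21. As the files' build is mm9, read numbers are approximate, and the coordinates printed are those of GRCm38. For each gene the transcript holding most reads was used. With 1 RPKM added to both values, the fold was the log2 of Set1a siRNA over control siRNA, a scale that understates changes of low genes, at a mean of at least 1 RPKM. Intervals are exact Clopper-Pearson 95% intervals from recovered reads and, for single read numbers, exact Poisson ones. Both cover counting error only.

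The members and lists were chosen with earlier results of these data known. Named genes were the members, Setd1a, near-identical relatives, Alyref and Alyref2, the 6 genes nearest in fold to the cluster sum, and up to 6 genes past 2-fold of each list, highest mean first. Other names, such as cell type markers, chromosomal neighbours and genes nearest to the mean per copy, fall outside this rule. Not all of them are marked as such in the text. Identity was computed with Biopython 1.88 alignments and BLAST 2.17.0, in Python 3.11.15 with SciPy 1.17.1. The scripts were tested on simulated counts of transcripts averaging 5 RPKM or more. The single-exon copies average less, so that simulation does not cover them. Other pseudocounts, floors, scalings, fold rules and ways to sum the copies were tried.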

Additional observations from a re-analysis of the deposited data

Results flagged for a closer look

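For 473 transcripts no symbol was found, and they entered no comparison above. Among the 246 of them that averaged 1 RPKM or more, 5 (2.03%) passed 2-fold on the higher side after Set1a siRNA and 0 on the lower, against 0.764% and 0.407% of the genes with a symbol. They are given because these values were not otherwise used, and whether their share differs from that of the genes was not tested. Whether any of them belongs to the cluster was not tested.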

How the results depend on the processing

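The cluster sum had a log2 fold of 3.32. In the 16 other settings run for it, the log2 fold of the sum ran from 2.72 to 3.44. The members were chosen on this contrast. No setting was likely to reverse a fold of this size, so the kept sign is no support. The lowest values were 2.88 with a pseudocount of 5 RPKM and 2.72 with the mean over copies. The second differs by construction, since the RPKM ratio is the same and the added 1 RPKM weighs more on a smaller value. Taking Gm4340 alone (3.05), the single-exon copies alone (3.39) or each distinct sequence once (3.21) was chosen after seeing the data. The single-exon copies alone are also the sum without Gm4340, so that value is repeated among the 16. Single copies ran from 1.02 to 3.82 in the 28 settings run for them, where the sign was likewise no test. The number of members at least 2-fold higher was 7 in every setting other than a floor of 5 RPKM, where Gm4340 was the only member left and the count was 1. Over all genes, 90 were higher and 48 lower. Adding 0.1 RPKM gave 177 higher and 89 lower, adding 5 RPKM gave 37 and 10, and a floor of 5 RPKM gave 34 and 8. The numbers were 325 and 199 with a 1.5-fold rule and 53 and 29 with a 3-fold rule, and without a floor 77 were lower. Of the 2-cell-like list, 17 were higher and 0 lower, against 11 higher with a pseudocount of 5 and 1 lower with a 1.5-fold rule. Of the export list 0 passed in either direction in each of 8 settings, added after seeing the data. Scaling by median of ratios or without the 50 most abundant genes used factors of 0.998 and 0.987. No paired analysis was possible because a group consisted of a single library. Few reads limit the single-exon copies most, with 2 to 4 control siRNA reads each. Of the 6 genes nearest in fold, 5 were Zscan4 copies against the sum, 0 against the mean per copy and 1 against Gm4340 alone, the last 2 settings being added after seeing the data. The cause of the other shifts was not tested.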
